A study of Homo sapiens with 6 samples.

Results

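The genes described here are SREBP targets, the genes of cholesterol and fatty acid synthesis that the sterol regulatory element-binding proteins are known to switch on, together with the genes of these proteins themselves. A list of 32 genes was used, and each was read from its probe set with the highest mean among the probe sets that the platform's annotation gives to a single gene. This gave values for 29 of the 32 genes, out of 14428 genes tested on the arrays. All 29 passed the filter on low values and lay above its level on all 6 arrays. CYP51A1 and FADS1 had only probe sets shared with another gene and were left out, and FDFT1 was not analysed here.

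Total RNA came from A2058, an established human melanoma cell line, and was hybridised to Affymetrix expression arrays. Cells labelled TET2WT overexpressed TET2WT, cells labelled TET2M overexpressed TET2M, and Mock cells were the control line. TET2 encodes a dioxygenase of the DNA demethylation pathway. All lines were kept for 7 days in DMEM medium with 4.5 g/L glucose (high glucose) or with 1 g/L glucose (normal glucose), with a single array for every line and concentration, 6 in all. The sources used here do not give the alteration in TET2M, the promoter behind either transgene, or whether a line was grown from a single clone. With no repeated arrays, every SE and p-value below rests on the spread left between these 6 arrays after line and glucose are taken out. The test of a glucose response of TET2WT cells alone takes out a further glucose term. Limma moderates this spread with that of all genes tested, and it may be technical. A count of pairs beside an SE gives the pairs behind the difference, and the SE is not the spread of those pairs. Values are deposited log2 probe set values, so a difference of 1 stands for a doubling; a level is never set against the level of another gene.

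SREBF1 and SREBF2 encode membrane proteins that the escort protein SCAP carries from the endoplasmic reticulum to the Golgi, where they are cut to release a transcription factor. Sterols hold SCAP in the endoplasmic reticulum together with INSIG proteins, which lowers transcription of the target genes. SREBF2 products act mainly on cholesterol synthesis, and SREBF1 products mainly on fatty acid synthesis and, in liver, respond to insulin. INSIG1 is itself a target. The arrays measured mRNA only, so the activity of SREBPs was not tested.

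The array medians lay between 2.96 and 3.03. TET2, the check of the line labels, had 9.54 and 9.68 in TET2WT cells (high glucose, then normal), 7.57 and 7.37 in TET2M cells, and 3.81 and 4.13 in Mock cells. TXNIP, a gene known to be induced by glucose, had 6.40, 6.31 and 5.39 at high glucose in TET2WT, TET2M and Mock cells, against 4.25, 4.08 and 4.16 at normal glucose. Of the melanocyte lineage markers, SOX10 (9.38 to 9.65) and MITF (6.30 to 6.96) were well above the low-value level of 2.64, PMEL lay between 3.55 and 4.20, and MLANA and TYR stayed at or below that level on all arrays. DCT was not analysed here.

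The comparison of high with normal glucose asked which of these genes differ with the glucose supply. At high glucose the lowest values relative to normal glucose were those of INSIG1, SCD and STARD4, at 2.27-fold, 2.19-fold and 1.98-fold lower, and they were lower in each of the 3 lines. SREBF1, DHCR7 and SREBF2 followed with differences between -0.66 and -0.54. In all, 26 of the 29 genes had a lower mean at high glucose, with a median difference of -0.23 against -0.02 over all genes tested, of which 55.7% were lower. None of these differences passed the test: limma, with Benjamini-Hochberg adjustment over all 14428 genes, called 0 of the 29 at 0.05, and it called 1 gene (0.00693%) on the whole array. With an intensity trend in limma's prior variance, 10 of the 29 passed, all lower at high glucose, and 573 genes on the whole array did. At an unadjusted p under 0.05, 14 of the 29 were lower, against 8.19% of all genes, and 1 was higher, against 7.18% of all genes. The 29 genes were chosen with earlier results of these data known, so their counts here and between lines are description only. In 12 of the 29, all 3 high-glucose arrays lay below all 3 normal-glucose arrays, as they did for 7.8% of all genes, and 17 of the 29 were lower in all 3 lines, against 20.7% of all genes.

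**Figure D1:**
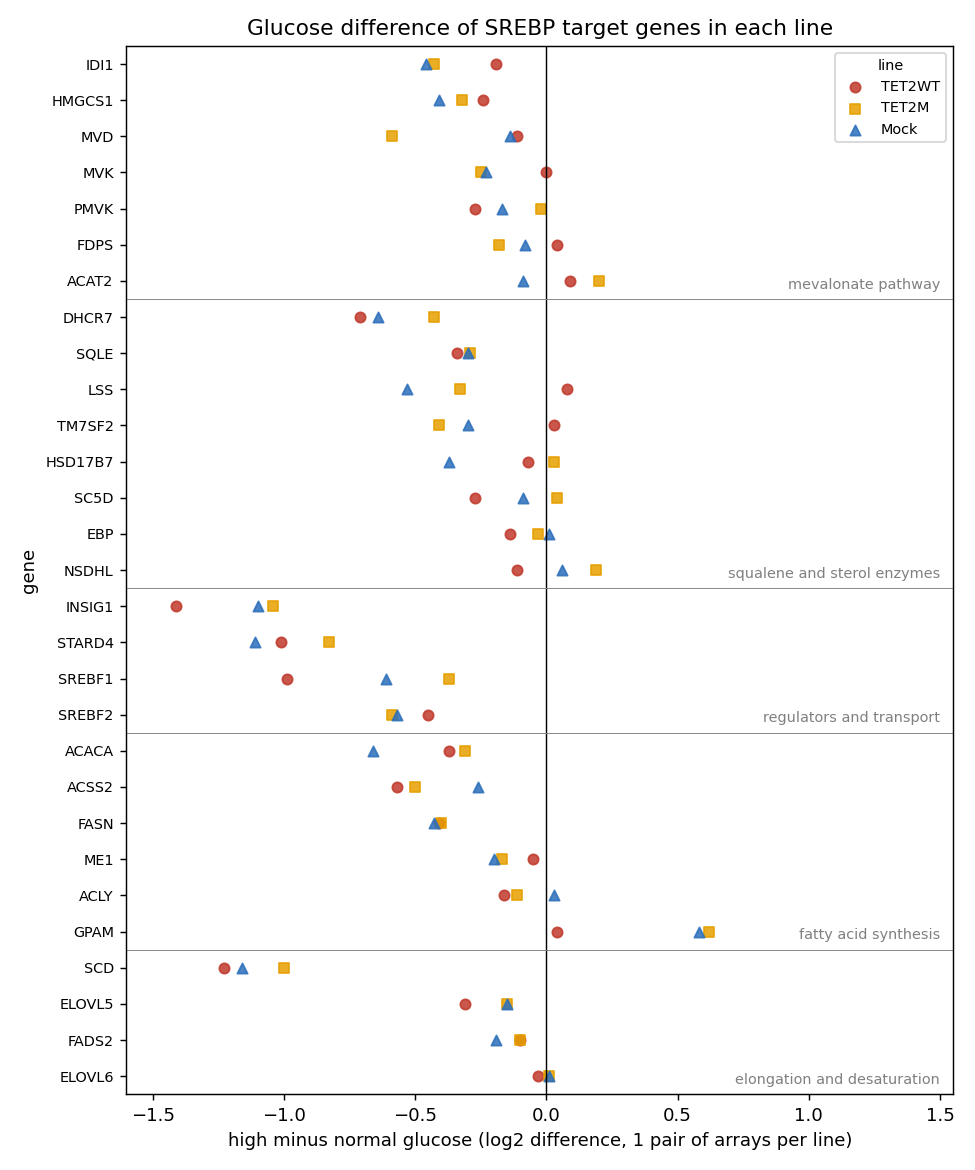
High minus normal glucose difference (log2, x axis) of each of the 29 genes, grouped by role down the page, with 1 point for TET2WT, TET2M and Mock, each the difference of 2 arrays. INSIG1, SCD and STARD4 lie at -0.83 or below in all 3 lines, and GPAM is the gene farthest to the right, at 0.62 and 0.58 in TET2M and Mock cells and 0.04 in TET2WT cells.

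Among the regulators and the sterol carrier, INSIG1, which retains the SCAP-SREBP complex in the endoplasmic reticulum, had 5.41, 5.79 and 6.17 at high glucose in TET2WT, TET2M and Mock cells, against 6.82, 6.83 and 7.27 at normal glucose. The 3 high-glucose arrays all lay below the 3 normal-glucose arrays. The difference was -1.18 ± 0.096 (SE, 3 pairs of arrays), 2.27-fold lower at high glucose, with an adjusted p of 0.0727 by limma. STARD4, a cytosolic sterol carrier, had 4.55, 4.40 and 4.86 at high glucose in TET2WT, TET2M and Mock cells, against 5.56, 5.23 and 5.97 at normal glucose. The arrays of the 2 concentrations did not overlap here either, and the difference was -0.98 ± 0.084 (SE, 3 pairs), with a limma adjusted p of 0.0727.

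The genes of both transcription factors lay on the same side as their targets. SREBF1 had 6.10, 6.58 and 6.26 at high glucose in TET2WT, TET2M and Mock cells, against 7.09, 6.95 and 6.87 at normal glucose. Its difference was -0.66 ± 0.13 (SE, 3 pairs; limma adjusted p = 0.146), and by line it was -0.99 in TET2WT, -0.37 in TET2M and -0.61 in Mock cells. SREBF2 had 5.53, 5.53 and 5.32 at high glucose in TET2WT, TET2M and Mock cells, against 5.98, 6.12 and 5.89 at normal glucose. Its difference was -0.54 ± 0.074 (SE, 3 pairs; limma adjusted p = 0.0893), and it varied less between lines, from -0.59 to -0.45. For neither gene did the 2 concentrations overlap. These 4 genes had a median difference of -0.82.

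In the mevalonate pathway, which builds isoprenoid units from acetyl-CoA, 6 of 7 genes were lower at high glucose, with a median of -0.16. IDI1, the isomerase of isopentenyl diphosphate, had 7.98, 7.94 and 8.01 at high glucose in TET2WT, TET2M and Mock cells, against 8.17, 8.37 and 8.47 at normal glucose. Its difference was -0.36 ± 0.085 (SE, 3 pairs; limma adjusted p = 0.185), with no overlap between concentrations. HMGCS1, the synthase that commits carbon to the pathway, had 5.52, 5.46 and 5.78 at high glucose in TET2WT, TET2M and Mock cells, against 5.76, 5.78 and 6.19 at normal glucose. Here the Mock array at high glucose reached the lower normal-glucose arrays, although the gene was lower in each line (-0.32 ± 0.075, SE; limma adjusted p = 0.180). The decarboxylase MVD had 3.37, 3.14 and 3.31 at high glucose in TET2WT, TET2M and Mock cells, against 3.48, 3.73 and 3.45 at normal glucose. Its difference of -0.28 was mostly that of TET2M cells (-0.59). The kinases MVK and PMVK differed by -0.16 and -0.15, and the farnesyl diphosphate synthase FDPS by -0.07. ACAT2, the cytosolic thiolase of the first step, was the exception at 0.07, lower in Mock cells and higher in the other lines.

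Among the enzymes from squalene to cholesterol, 7 of 8 were lower at high glucose, with a median of -0.18. DHCR7, a sterol reductase that forms cholesterol in the final step, had 5.24, 5.49 and 5.72 at high glucose in TET2WT, TET2M and Mock cells, against 5.95, 5.92 and 6.36 at normal glucose. No high-glucose array reached the normal-glucose range, and the difference was -0.59 ± 0.085 (SE, 3 pairs; limma adjusted p = 0.0893). SQLE, the squalene epoxidase, had 6.81, 6.82 and 7.11 at high glucose in TET2WT, TET2M and Mock cells, against 7.15, 7.11 and 7.41 at normal glucose. The difference in each line was close to its mean of -0.31 ± 0.070 (SE; limma adjusted p = 0.172), between -0.34 and -0.29. LSS, which closes the ring of lanosterol, and the sterol reductase TM7SF2 differed between lines instead: LSS had differences of 0.08 in TET2WT, -0.33 in TET2M and -0.53 in Mock cells, and TM7SF2 had 0.03, -0.41 and -0.30 in the same lines. The remaining enzymes of the later steps stayed closer to 0, with -0.14 for HSD17B7, -0.11 for SC5D, -0.05 for EBP and 0.05 for NSDHL.

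SCD, the desaturase that makes monounsaturated fatty acids, had 8.20, 8.57 and 8.72 at high glucose in TET2WT, TET2M and Mock cells, against 9.43, 9.57 and 9.88 at normal glucose. Every high-glucose array lay below every normal-glucose array. Its difference of -1.13 ± 0.080 (SE, 3 pairs) had the lowest limma adjusted p among the 29 genes, 0.0589. The other genes of elongation and desaturation differed far less. The elongase ELOVL5 had -0.20 ± 0.076 (SE; limma adjusted p = 0.295), the polyunsaturated fatty acid desaturase FADS2 had -0.13, and the elongase ELOVL6 had -0.0033.

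In fatty acid synthesis itself, 5 of 6 genes were lower at high glucose, with a median of -0.28. FASN, the fatty acid synthase, had 5.94, 5.98 and 6.24 at high glucose in TET2WT, TET2M and Mock cells, against 6.35, 6.38 and 6.67 at normal glucose. In the probe set used, the 3 lines gave nearly the same difference, -0.41, -0.40 and -0.43 (mean -0.41 ± 0.070, SE; limma adjusted p = 0.132). ACACA, the acetyl-CoA carboxylase that supplies its substrate, had 7.39, 7.57 and 7.44 at high glucose against 7.76, 7.88 and 8.10 at normal glucose in TET2WT, TET2M and Mock cells, a difference of -0.45 ± 0.094 (SE; limma adjusted p = 0.163). ACSS2, which makes acetyl-CoA from acetate, had 4.97, 4.65 and 5.10 at high glucose against 5.54, 5.15 and 5.36 at normal glucose in the same lines, a difference of -0.44 ± 0.088 (SE; limma adjusted p = 0.156). For FASN, ACACA and ACSS2 the concentrations did not overlap. ACLY, which makes acetyl-CoA from citrate, differed by -0.08, and the malic enzyme ME1, a source of NADPH, by -0.14.

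GPAM, the mitochondrial acyltransferase that starts glycerolipid synthesis, stood opposite to the others. It had 5.80, 6.32 and 6.52 at high glucose in TET2WT, TET2M and Mock cells, against 5.76, 5.70 and 5.94 at normal glucose, a difference of 0.41 ± 0.13 (SE, 3 pairs; limma adjusted p = 0.244). In this probe set the TET2WT array at high glucose lay among the normal-glucose arrays, while the second GPAM probe set had a difference of 0.70 in TET2WT cells.

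Within single lines, values only can be given, since each rests on 2 arrays. The median difference of the 29 genes was -0.19 in TET2WT, -0.29 in TET2M and -0.26 in Mock cells, against 0, -0.02 and -0.03 over all genes in the same lines. The genes lower at high glucose numbered 23 in TET2WT, 23 in TET2M and 24 in Mock cells. Of all genes, 48.3%, 53.3% and 54.5% were lower in the same lines. INSIG1 had the lowest difference in TET2WT (-1.41) and TET2M (-1.04), and SCD had the lowest in Mock cells (-1.16). Across the 29 genes the differences of TET2M and Mock cells had a Pearson correlation of 0.88, those of TET2WT and Mock cells 0.80, and those of TET2WT and TET2M cells 0.74, with Spearman values of 0.78, 0.64 and 0.62. These describe 29 genes of 1 pathway measured on the same arrays, and genes are not independent replicates.

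The ratio of the 3′ to the 5′ probe set of ACTB, a measure of RNA degradation and labelling, was higher at high glucose in each line. On the log2 scale it was 2.06, 1.93 and 2.02 at high glucose in TET2WT, TET2M and Mock cells, against 1.90, 1.65 and 1.94 at normal glucose, while that of GAPDH was 0.35, 0.28 and 0.29 against 0.25, 0.28 and 0.32. Its part in the glucose differences was not tested. In bulk RNA, fewer cells that express a gene and less RNA per cell cannot be told apart.

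Other probe sets of INSIG1 and SCD gave the same direction for glucose, while STARD4 had only 1 single-gene probe set to read. The 3 probe sets of INSIG1 had -1.18, -1.23 and -1.05, and the 4 of SCD had -1.13, -0.96, -0.86 and -0.76. For the transcription factors the other probe sets were nearer to 0: -0.16 for SREBF1, against -0.66 in the probe set used, and -0.21 and -0.08 for SREBF2, against -0.54. ACLY went the other way, since its other probe sets had -0.40 and -0.33 where the one used had -0.08. The other SQLE probe sets above the filter had 0.05 and -0.32, against -0.31 in the one used, so the value of SQLE depends on which is read. The second FASN probe set had 0.28 in TET2WT, -0.18 in TET2M and -0.50 in Mock cells, so the closeness of the lines holds for the probe set used, and the mean of probe sets gave -0.27 for FASN.

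Stretches of the promoters of INSIG1, SCD, STARD4, DHCR7 and SREBF2 are shown because these genes had the lowest adjusted p for glucose. The sequences are RefSeq's on GRCh38.p14, written 5′ to 3′ on the strand of the gene. They lie in the 250 bases upstream of the annotated start. Capitals mark CCAAT, the box bound by NF-Y, a factor known to act together with SREBPs, or its reverse complement ATTGG, and in SREBF2 also the core of a sterol regulatory element, TCACNCCAC. The INSIG1 window is chr7:155297693-155297727 on the plus strand, that of SCD chr10:100346989-100347066 on the plus strand, that of STARD4 chr5:111512646-111512711 on the minus strand, that of DHCR7 chr11:71448422-71448502 on the minus strand, and that of SREBF2 chr22:41832957-41833018 on the plus strand.
INSIG1: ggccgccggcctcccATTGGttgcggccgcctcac
SCD: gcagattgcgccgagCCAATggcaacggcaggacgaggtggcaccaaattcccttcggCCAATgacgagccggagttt
STARD4: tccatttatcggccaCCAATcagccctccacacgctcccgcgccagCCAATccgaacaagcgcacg
DHCR7: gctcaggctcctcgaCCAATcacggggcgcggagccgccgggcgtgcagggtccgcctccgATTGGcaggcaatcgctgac
SREBF2: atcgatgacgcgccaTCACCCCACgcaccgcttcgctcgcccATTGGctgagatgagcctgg

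RefSeq promoter entries were found for 28 of the 32 listed genes, with 38 windows, and all 35116 windows in the table were searched in the same way on both strands. CCAAT was found in 24 of the 38 windows (63.2%), against 32% of all windows. Windows of the same gene can overlap, as those of ACLY and of SC5D did, so a match can count in more than 1 window. By gene, CCAAT was found in 20 of the 28. The GC box GGGCGG, known as a site of Sp1, was found in 33 of the 38 (86.8%), against 42.6% of all. The sterol regulatory element core was found in 1 of the 38 (2.63%), that of SREBF2, against 0.883% of all, and the E box CACGTG in 4 (10.5%), against 6.34% of all. Each motif was counted on its own, whether or not its letters overlapped another motif, and a window counted once however many matches it held. The window of SREBF1 held neither CCAAT nor the sterol regulatory element core. All windows include those of non-coding genes, and a match describes letters only.

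The TET2WT line was set against Mock to ask whether these genes differ with overexpression of TET2WT. INSIG1, SCD and DHCR7 had the lowest adjusted p and lay lower in TET2WT cells, and TM7SF2 lay on the other side. None passed: limma called 0 of the 29 genes, against 608 genes (4.21%) on the whole array. With the intensity trend in the prior variance, DHCR7, ELOVL5, INSIG1 and SCD passed, all lower in TET2WT cells, and 1528 genes on the whole array did. At an unadjusted p under 0.05, 11 of the 29 were lower in TET2WT cells, against 11.4% of all genes, and 1, TM7SF2, was higher, against 8.78%. Of the 29, 21 had a negative difference, against 51.8% of all genes, with a median of -0.17 against -0.01 over all genes. Lower at both concentrations were 15, against 33.1% of all genes. TET2WT and TET2M were both set against the same Mock arrays, so the results of the pair are not independent.

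INSIG1 had 5.41 and 6.82 at high and normal glucose in TET2WT cells, against 6.17 and 7.27 in Mock cells. It was lower at either concentration (-0.61 ± 0.12, SE, 2 pairs; limma adjusted p = 0.0509). SCD had 8.20 and 9.43 in TET2WT cells, against 8.72 and 9.88 in Mock cells, a difference of -0.49 ± 0.098 (SE, 2 pairs; limma adjusted p = 0.0556). DHCR7 had 5.24 and 5.95 in TET2WT cells, against 5.72 and 6.36 in Mock cells, a difference of -0.45 ± 0.10 (SE, 2 pairs; limma adjusted p = 0.0804). For each of these genes the TET2WT array at normal glucose lay above the Mock array at high glucose, so the lines separate only at a matched concentration. The sizes depended on the probe set. The other INSIG1 probe sets had TET2WT minus Mock differences of -0.34 and -0.06, and the mean of probe sets gave -0.33 (limma adjusted p = 0.202). The other DHCR7 probe set had -0.03, and the mean gave -0.24 (limma adjusted p = 0.292). Of the 4 SCD probe sets, 1 had 0.02, and the mean gave -0.33 (limma adjusted p = 0.118).

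All 4 genes of elongation and desaturation had a negative difference in the probe sets used, with a median of -0.30. FADS2 had 4.81 and 4.91 at high and normal glucose in TET2WT cells, against 5.07 and 5.26 in Mock cells (-0.31 ± 0.088, SE; limma adjusted p = 0.132). ELOVL5 differed by -0.29 and ELOVL6 by -0.23 (limma adjusted p = 0.162 and 0.213). The value of ELOVL5 rests on 1 probe set: the others above the filter had 0.11 and 0.02, and the mean of probe sets gave -0.06 (limma adjusted p = 0.747). HMGCS1 differed by -0.35, FASN by -0.31, SQLE by -0.28 and STARD4 by -0.36, with limma adjusted p between 0.111 and 0.149. GPAM differed by -0.45 ± 0.16 (SE; limma adjusted p = 0.191), by -0.17 without the TET2WT array at high glucose and by -0.73 without the TET2WT array at normal glucose.

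TM7SF2 had 4.27 and 4.24 at high and normal glucose in TET2WT cells, against 3.59 and 3.89 in Mock cells. Both TET2WT arrays lay above both Mock arrays, and the difference was 0.52 ± 0.13 (SE, 2 pairs; limma adjusted p = 0.0920), or 0.32 without the TET2WT array at high glucose. The genes of the transcription factors differed little, by 0.03 for SREBF1 and 0.15 for SREBF2, the second being higher in TET2WT cells at both concentrations.

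In TET2M cells against Mock cells, limma called 0 of the 29 genes, against 14 genes (0.097%) on the whole array. At an unadjusted p under 0.05, 10 of the 29 were lower, against 6.17% of all genes, and 1, TM7SF2, was higher, against 3.34%. The median was -0.16 against -0.02 over all genes, and 23 of 29 were negative, against 54.7% of all genes. Lower at both concentrations were 19, against 33.9% of all genes. STARD4 had 4.40 and 5.23 at high and normal glucose in TET2M cells, against 4.86 and 5.97 in Mock cells, a difference of -0.60 ± 0.10 (SE, 2 pairs; limma adjusted p = 0.200). Next to it, INSIG1 differed by -0.41 ± 0.12 (SE; limma adjusted p = 0.411), LSS by -0.38, HMGCS1 by -0.37 and DHCR7 by -0.34. The other INSIG1 probe sets had -0.395 and -0.045. The other probe sets above the filter had -0.125 for LSS, -0.45 for HMGCS1 and -0.115 for DHCR7. SCD differed by -0.23 and TM7SF2 by 0.32, while SREBF1 and SREBF2 differed by 0.20 and 0.22, both higher in TET2M cells at each concentration.

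**Figure D2:**
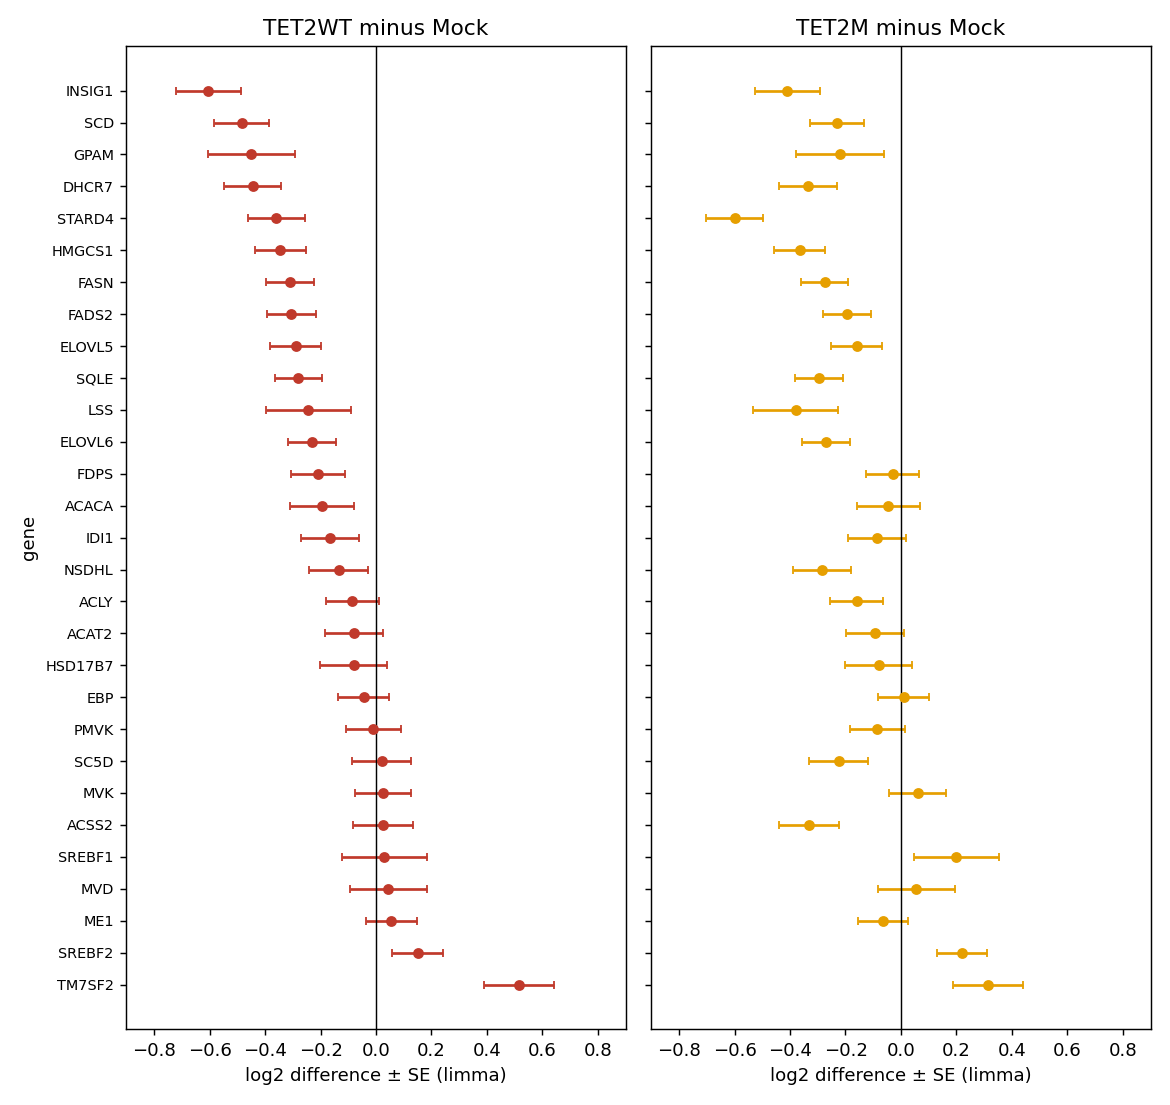
Difference from Mock (log2, x axis) of each of the 29 genes over the 2 glucose concentrations, with TET2WT minus Mock in the left panel and TET2M minus Mock in the right, both against the same Mock arrays. Bars are the limma SE. Most genes lie left of 0 in both, and TM7SF2 lies farthest right, at 0.52 and 0.32.

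In the direct comparison of TET2WT with TET2M cells the differences do not rest on the Mock arrays. Their SE and p-values do in part, since the fit takes its spread from all 6 arrays. TET2 itself was higher by 2.14 in TET2WT than in TET2M cells (limma adjusted p = 0.00187). The level of TET2 and the alteration in TET2M thus cannot be told apart in any difference between these lines. Limma called 0 of the 29 genes, against 476 genes (3.3%) on the whole array, or 1 (SCD) against 1249 with the intensity trend, and the median difference was -0.01 against 0 over all genes. At an unadjusted p under 0.05, SCD and ACSS2 differed, 2 of 29 against 17.6% of all genes. SCD had 8.20 and 9.43 at high and normal glucose in TET2WT cells, against 8.57 and 9.57 in TET2M cells (-0.26 ± 0.098, SE; limma adjusted p = 0.258), and the mean of its probe sets gave -0.09. ACSS2 had 4.97 and 5.54 in TET2WT cells, against 4.65 and 5.15 in TET2M cells (0.36 ± 0.11, SE; limma adjusted p = 0.170). In the probe sets used, INSIG1 and STARD4 lay on opposite sides, at -0.20 and 0.24, and neither passed. The other INSIG1 probe sets had 0.055 and -0.01.

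A keratinocyte marker, KRT14, differed between the lines as well, at 4.55 and 3.89 at high and normal glucose in TET2WT cells, 6.22 and 5.91 in TET2M cells, and 6.86 and 6.38 in Mock cells. The other marker of that type, KRT5, lay between 2.67 and 3.54. Of the remaining markers of other cell types, COL1A1 lay between 4.18 and 4.81, DCN between 2.96 and 3.60, PECAM1 between 4.09 and 4.45, and PTPRC between 1.98 and 2.22, below the low-value level. Their part in the line differences was not tested.

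By array, the Mock array at normal glucose held the highest value for 15 of the 29 genes, against 17.9% of all genes, and the lowest for 0 of the 29, against 9.25% of all genes. The lowest values lay mostly at high glucose: 11 genes were lowest on the TET2WT array and 8 on the TET2M array at high glucose, against 17.6% and 15.8% of all genes. For more than any other array, the highest values of these genes thus lay on the control line at the lower glucose concentration.

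Whether the glucose response differed in TET2WT cells was tested by setting its difference against the mean of those in TET2M and Mock cells. Limma called 0 of the 29 genes and 0 genes (0%) on the whole array, and at an unadjusted p under 0.05 it gave 3 of the 29, GPAM, LSS and TM7SF2, against 9.18% of all genes. GPAM had a glucose difference of 0.04 in TET2WT cells, against a mean of 0.60 in the other lines (-0.56 ± 0.10, SE; limma adjusted p = 0.531). Its second probe set gave the opposite order, 0.70 in TET2WT, 0.23 in TET2M and 0.21 in Mock cells, so this value belongs to 1 probe set and not to the gene. LSS had 0.08 in TET2WT cells, against a mean of -0.43 in the other lines, and TM7SF2 had 0.03 against -0.36, both with a limma adjusted p of 0.531. The other LSS probe set above the filter had -0.09 in TET2WT, -0.39 in TET2M and 0.38 in Mock cells, and with the mean of probe sets the difference of 0.51 for LSS became 0.21. For SREBF1 the glucose difference was -0.99 in TET2WT cells, against a mean of -0.49 in the other lines (limma adjusted p = 0.531). Its second probe set gave the opposite order, 0.04 in TET2WT, -0.11 in TET2M and -0.40 in Mock cells. For INSIG1 it was -1.41 in TET2WT cells, against a mean of -1.07 in the other lines, again with a limma adjusted p of 0.531.

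In the same fits, 5 further lists with 69 genes around the pathway were examined, of which 53 were tested. These lists too were chosen with earlier results of these data known. They may hold SREBP targets as well, so they do not set targets against other genes. For glucose, 0 of the 53 passed by limma, and at an unadjusted p under 0.05 the counts were 0 of 9 processing and sensing genes, 1 of 3 other sterol enzymes, 4 of 12 sterol transport genes, 0 of 5 LXR genes and 7 of 24 fatty acid genes, against 15.4% of all genes. The proteins that process SREBPs and sense sterols had a median glucose difference of 0.0033 over 9 genes, from 0.23 for ERLIN2, a component of the degradation machinery of the endoplasmic reticulum, down to -0.16 for SCAP. In the other enzymes of sterol synthesis, MSMO1, a sterol methyl oxidase, differed by -0.31 (limma adjusted p = 0.196) and GGPS1, which makes geranylgeranyl diphosphate, by -0.25. The genes of cholesterol export controlled by LXR, the oxysterol receptor, had a median of -0.03 over 5 genes, with -0.06 for the receptor gene NR1H3 and -0.04 for the exporter ABCA1. So the median of these lists lay within 0.03 of 0 except in the other sterol enzymes, at -0.25 over 3 genes.

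Single genes of lipid handling differed in both directions with glucose. VLDLR, a lipoprotein receptor, had 5.18, 4.76 and 4.67 at high glucose in TET2WT, TET2M and Mock cells, against 4.90, 3.92 and 3.97 at normal glucose (0.61 ± 0.12, SE; limma adjusted p = 0.155). SCARB1, the receptor for high-density lipoprotein, had 6.64, 6.94 and 6.80 at high glucose, against 7.15, 7.11 and 7.36 at normal glucose in the same lines (-0.41 ± 0.099, SE; limma adjusted p = 0.186). LPIN1, a phosphatidate phosphatase of glycerolipid synthesis, had 6.35, 6.31 and 6.53 at high glucose, against 6.92, 7.05 and 7.03 at normal glucose in the same lines. Its concentrations did not overlap, and its difference of -0.60 ± 0.081 (SE; limma adjusted p = 0.0893) lay between those of SREBF1 and DHCR7. MID1IP1, which helps acetyl-CoA carboxylase polymerise, had 5.16, 5.16 and 5.25 at high glucose, against 4.77, 4.58 and 4.69 at normal glucose in the same lines, so it lay opposite to ACACA (0.51 ± 0.078, SE; limma adjusted p = 0.106).

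**Figure D3:**
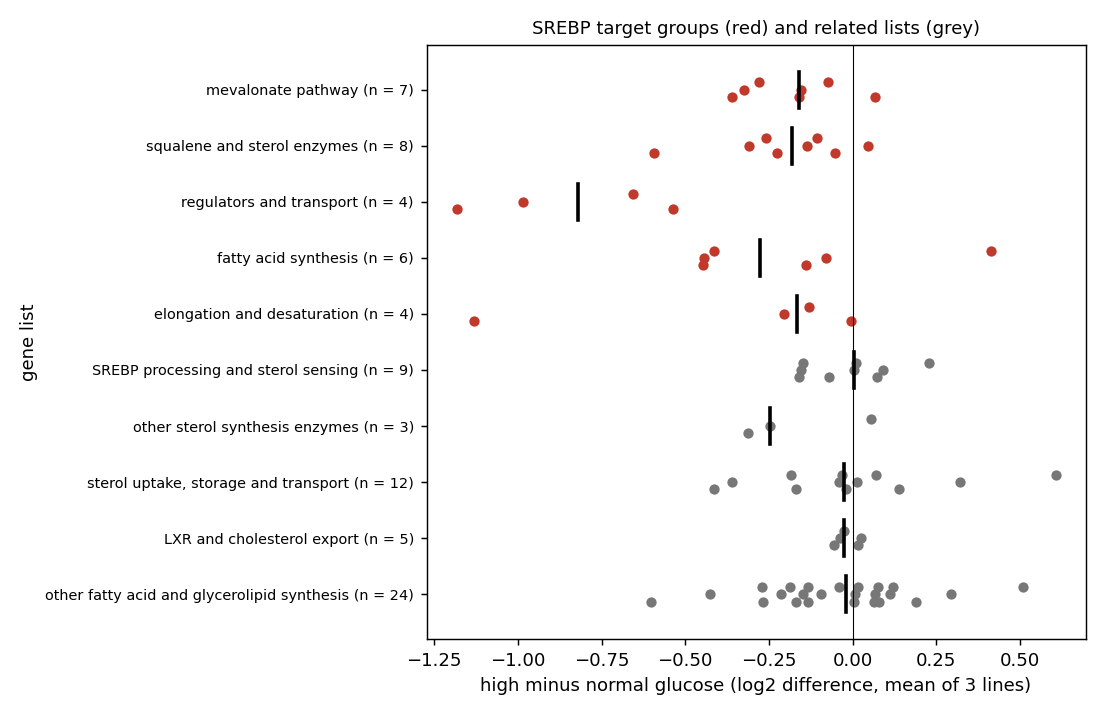
High minus normal glucose difference (log2, x axis) of every tested gene in the SREBP target groups and in the 5 further lists, 1 point per gene, with the median of each group as a bar and a line at 0. The regulators and transport group has the lowest median (-0.82), and the 5 further lists centre between -0.25 and 0.0033.

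Between lines, 3 genes of the further lists passed. GRAMD1B, which moves cholesterol from the plasma membrane to the endoplasmic reticulum, had 7.77 and 8.30 at high and normal glucose in TET2WT cells, 6.60 and 6.79 in TET2M cells, and 6.44 and 6.80 in Mock cells. Both TET2WT arrays lay above all others, and the gene was higher by 1.42 ± 0.11 than in Mock cells (SE; limma adjusted p = 0.00334) and by 1.34 than in TET2M cells (limma adjusted p = 0.00422). ACSL5, which activates long-chain fatty acids to their CoA esters, had 4.01 and 4.18 in TET2WT cells, 3.28 and 3.38 in TET2M cells, and 3.16 and 3.17 in Mock cells. It was higher in TET2WT cells by 0.93 ± 0.091 than in Mock cells (SE; limma adjusted p = 0.00741) and by 0.77 than in TET2M cells (limma adjusted p = 0.0133). FADS3, a gene of the fatty acid desaturase family, had 6.17 and 6.27 in TET2WT cells, 6.68 and 6.87 in TET2M cells, and 6.54 and 6.81 in Mock cells. It fell in TET2WT relative to TET2M cells (-0.56 ± 0.092, SE; limma adjusted p = 0.0380), and its difference from Mock cells of -0.46 did not pass (limma adjusted p = 0.0557). Leaving out any 1 of the 6 arrays kept the direction of the differences that had passed and ended the calls, with limma adjusted p between 0.0949 and 0.475. Against Mock cells 1 of 12 sterol uptake, storage and transport genes thus passed, and 1 of 24 fatty acid and glycerolipid genes. The second share was near the 4.21% of all genes. Against TET2M cells 1 of 12 and 2 of 24 passed, against 3.3% of all genes. At an unadjusted p under 0.05 against Mock, TET2WT cells had 0 of 9 processing and sensing genes and 0 of 3 sterol enzymes. They had 4 of 12 sterol transport genes, 3 of 5 LXR genes and 5 of 24 fatty acid genes, against 20.2% of all genes. In TET2M against Mock cells 0 of the 53 passed by limma, with differences of -0.42 for ELOVL4, a very long chain elongase, and 0.35 for NPC2, a lysosomal sterol carrier. At an unadjusted p under 0.05 the counts were 0 of 9 processing and sensing genes, 1 of 3 sterol enzymes, 2 of 12 sterol transport genes, 0 of 5 LXR genes and 2 of 24 fatty acid genes, against 9.51% of all genes.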

How the data were processed

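Total RNA of 6 cultures was measured on 1 Affymetrix array each. Per the submitters' processing notes, the authors used Affymetrix Expression Console. The deposited table holds log2 values per probe set. How they were summarised and background-corrected, and the program version, is not given in the sources used here. Values from 1.56 to 13.78 fit base 2. The sorted values of the arrays lay within 0.12 of each other, so the deposited arrays share nearly 1 distribution, and a shift common to most genes would not be seen.

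Of 54675 probe sets, 62 were controls, 41091 named 1 gene, 1801 several and 11777 none. Symbols were updated by gene ID for 41037 of them. Probe sets with a mean below the 40th percentile (2.64) were dropped, and the highest-mean probe set stood for each of 14428 genes. In R 4.3.3, limma 3.58.1 (lmFit, eBayes) fitted line and glucose over all 6 arrays (residual degrees of freedom 2, prior 3.97). A second fit added a glucose term for TET2WT (residual 1, prior 1.72). Tests were two-sided and adjusted by Benjamini-Hochberg over all genes at 0.05. The scripts were tested on simulated data. Other tools were the R package data.table (version 1.17.8), Python (version 3.11.15) and matplotlib (version 3.10.9).

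The members and lists were chosen with earlier results of these data known. All listed genes with a single-gene probe set are named. From the further lists, those that passed or up to 2 with the largest differences per list are named. Alternatives were no filter, the mean of probe sets, quantile normalization, an intensity trend in the prior, the other factor left out, and each array or line left out. Promoter sequences came from RefSeq (GRCh38.p14).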

Additional observations from a re-analysis of the deposited data

How the results depend on the processing

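The counts of SREBP target genes that passed were 0 in each comparison and moved with the variance model, the scaling and the probe set rule. For high against normal glucose, 1 gene passed with no filter on low values (SCD), 2 passed with the mean of probe sets per gene (SCD, STARD4), 3 passed after quantile normalization (INSIG1, SCD, STARD4), and 10 passed with an intensity trend in the prior variance (these 3 and ACACA, DHCR7, FASN, IDI1, SQLE, SREBF1 and SREBF2), all lower at high glucose. In that fit the calls over all genes numbered 573, against 1. For TET2WT against Mock, 1 gene passed with the mean of probe sets (GPAM), 1 after quantile normalization (INSIG1) and 4 with the trend (DHCR7, ELOVL5, INSIG1, SCD), all lower, and over all genes 1528 passed with the trend, against 608. For TET2WT against TET2M, 1 passed with the trend (SCD), with 1249 calls over all genes, against 476. For TET2M against Mock and for the TET2WT-specific response, 0 members passed under every alternative run, although over all genes TET2M against Mock had 149 calls with the trend and 25 with the mean of probe sets, against 14. The cause of these moves was not tested. Leaving out each array or line in turn gave 0 members in the 4 comparisons where it was run, with 1 residual degree of freedom, which says nothing about stability, and for the TET2WT-specific response it was not run, since no residual degrees of freedom remain. No member's difference with an unadjusted p under 0.05 reversed under an alternative that was run. GRAMD1B, ACSL5 and FADS3 kept their calls under the other alternatives except leaving an array or line out and, for FADS3, leaving glucose out of the model (limma adjusted p = 0.107). Over all alternatives the glucose difference ranged from -1.26 to -1.07 for INSIG1, from -1.20 to -0.93 for SCD, and from -0.58 to -0.28 for SREBF2. That of GPAM in the TET2WT-specific response ranged from -0.56 to -0.04, the smallest with the mean of probe sets. The model pairs arrays by line and by concentration, and with the other factor left out 0 members passed. The mean of probe sets moved SREBF1 to -0.41 for glucose, and for TET2M against Mock LSS to -0.25, NSDHL to -0.14 and ELOVL6 to -0.18. Without the Mock array at high glucose LSS had -0.58 and ACSS2 -0.19 in TET2M against Mock, and without the Mock array at normal glucose LSS had -0.18. Without the TET2M array at normal glucose TM7SF2 had 0.18, NSDHL -0.18 and DHCR7 -0.21 there. Without either TET2M array MVD had -0.13 for glucose, and without the TET2M array at high glucose SCD had -0.16 for TET2WT against TET2M. A single array per condition limits the precision.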

Other observations

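For the TET2WT-specific glucose response, none of the 53 genes of the further lists passed limma's test. At an unadjusted p under 0.05 the counts were 0 of 9 processing and sensing genes and 0 of 3 other sterol enzymes. They were 2 of 12 sterol transport genes, 1 of 5 LXR genes and 4 of 24 fatty acid genes, against 9.18% of all genes. The largest differences were those of SCD5, ABCA1 and LPIN2. SCD5, a second stearoyl-CoA desaturase gene, had a glucose difference of 0.55 in TET2WT cells, against a mean of -0.27 in TET2M and Mock cells (difference of 0.82 ± 0.12, SE; limma adjusted p = 0.531). Its level lay close to the low-value level of 2.64. ABCA1, the cholesterol exporter, had -0.52 in TET2WT cells, against a mean of 0.21 in the other lines (-0.73 ± 0.15, SE; limma adjusted p = 0.531). LPIN2, a phosphatidate phosphatase, had -0.33 in TET2WT cells, against a mean of 0.29 in the other lines (-0.62 ± 0.11, SE; limma adjusted p = 0.531).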
